A study of Mus musculus with 6 samples.

Results

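The RAB GTPases were followed in mGLUTag cells, an immortalized mouse line of enteroendocrine L cells that secretes glucagon-like peptide-1. Members were all array probes whose gene symbol was RAB followed by a number and, where present, 1 further letter, 1 further digit or a letter and then a digit. This gave 102 probes of 56 genes, out of 45281 probes of 28902 genes on the array. The cells were starved of serum, synchronized with forskolin, which raises cyclic AMP, and returned to growth medium. Total RNA was hybridized to Illumina BeadChips at 4 h and at 16 h, with 3 arrays at each time point. Both groups held the same cell line after the same synchronization, and their described treatment differed by time alone. No unsynchronized cells and no cells with a changed clock gene entered the comparison. The sources used here do not say whether the 3 samples of a time point were separate cultures, so the p-values measure only the spread between these samples. In such bulk RNA, fewer cells carrying a transcript and less of it per cell cannot be told apart. Of 11 L-cell markers, 8 were above the noise of all 6 arrays, among them Gcg, Chga, Chgb, Scg2 and Isl1, while Pyy was above it on no array and Pcsk1 on 1. Of 14 markers of other cell types, 2 were above it on all arrays, Vim and Col1a1.

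RAB proteins are small GTPases that switch between a GDP-bound form held in the cytosol and a GTP-bound form that sits on a membrane and recruits effectors. Each membrane of the cell carries its own set of RABs, and the sets govern budding, transport, tethering and fusion of vesicles. In endocrine cells RAB3, RAB27, RAB26 and RAB37 are found on secretory granules, where they act in granule docking and release. Exchange factors load a RAB with GTP, GTPase-activating proteins return it to the GDP form, and the GDP dissociation inhibitors take it off the membrane. The 56 genes were placed in 5 classes by this textbook knowledge, with 8 secretory genes, 19 endosomal genes, 16 genes of the Golgi and endoplasmic reticulum (ER), 4 genes of the route from the Golgi to the plasma membrane and 9 others.

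Because forskolin acts through cyclic AMP and the study concerns the clock factor BMAL1, which with its partner CLOCK recognizes E-boxes, the RAB promoters were searched for both kinds of element. RefSeq windows (GRCm38.p6) from 250 bases before to 50 bases after each annotated start were matched to 46 of the 56 genes, in 58 windows. They were not at hand for Rab2a, Rab4a, Rab18, Rab26, Rab27b, Rab30, Rab36, Rab37 and Rab38. The array symbol RAB1 is an ambiguous older name and was left unmatched. The E-box CACGTG was present in 6 of these 58 windows (10.3%), against 7.15% of all 32851 promoter windows. The noncanonical E-boxes CATGTG and CATGCG were present in 6 and 2 RAB windows (10.3% and 3.45%), against 14.2% and 6.50% of all windows. The cyclic AMP element TGACGTCA was present in 2 RAB windows (3.45%), against 1.79% of all windows. Both strands were searched, and CACGTG and TGACGTCA each read the same on both. A match describes letters only. Among the genes searched, Rab5a was the 1 whose window held both an E-box and the cyclic AMP element, with E-boxes at 235 and 95 bases and the cyclic AMP element at 28 bases before the start, and Rab27a was the 1 of the secretory genes searched with CACGTG, 246 bases before the start. These stretches, on the plus strand, are shown with the element in capitals.
Rab5a, chr17:53478984-53479031, E-box: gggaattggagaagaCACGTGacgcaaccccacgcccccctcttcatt
Rab5a, chr17:53479112-53479171, E-box: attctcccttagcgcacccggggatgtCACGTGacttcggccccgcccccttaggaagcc
Rab5a, chr17:53479179-53479233, cyclic AMP element: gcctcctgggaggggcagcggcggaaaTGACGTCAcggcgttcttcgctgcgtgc
Rab27a, chr9:73063898-73063934, E-box: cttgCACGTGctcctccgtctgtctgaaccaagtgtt
The other windows with CACGTG belonged to Rab20, Rab21, Rab23 and Rab24. The noncanonical CATGTG was found for Rab13, Rab15, Rab28, Rab34 and Rab40b, and among these Rab15 had it before both of its annotated starts.

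Most RAB genes were expressed. The noise limit of an array was taken from its negative intensities (the 99th percentile of their sizes) and lay between 9.2 and 14 intensity units. At least 1 probe was above this limit on all 6 arrays for 43 of the 56 RAB genes (76.8%), against 36.0% of all genes on the array. No probe was above it on any array for 11 RAB genes (19.6%), against 51.3% of all genes. By probe, 65 of 102 RAB probes (63.7%) and 33.0% of all probes were above the limit on all arrays. Detection could be read from few probes for many members, since 26 of the 56 genes had 1 probe, and 12 probes of detected genes were themselves above the limit on no array. Brightness depends on the probe as well as on the transcript, so intensities of different genes are not ranked here. Rab7b, Rab42 and Rab44 are present only under clone names, outside the rule, and none of their probes was above the limit on all arrays.

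The share of genes above the limit on all 6 arrays was lowest in the secretory class. This ranking holds for that rule only, since 2 further secretory genes, Rab27b and Rab37, were above the limit on 5 arrays. No other class had a gene above it on only some arrays. On all arrays, 4 of 8 secretory, 16 of 19 endosomal, 13 of 16 Golgi and ER and all 4 Golgi to plasma membrane genes were above the limit, as were 6 of the 9 others. The undetected endosomal genes were Rab17, Rab20 and Rab25, of which Rab17 and Rab25 are known from polarized epithelia. The undetected Golgi and ER genes were Rab2b, Rab19 and Rab30, while Rab2a, the close relative of Rab2b in transport between the ER and Golgi, was well above the limit. Among the others, Rab29, Rab38 and Rab40b were above the limit on no array. Rab38 acts in the biogenesis of melanosomes beside Rab32, which was detected. No test was made of the differences between classes.

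**Figure D1:**
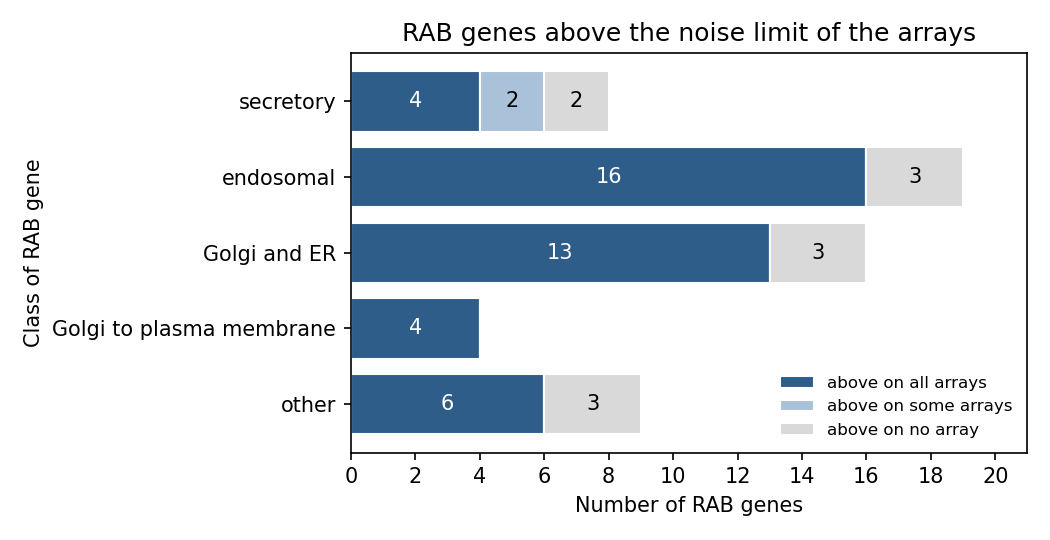
Number of RAB genes (horizontal axis) in each class whose best probe was above the noise limit on all 6 arrays, on 1 to 5 arrays or on none. Of 8 secretory genes 4 were above it on all arrays, and of 19 endosomal genes 16.

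Among the secretory RABs, 4 were detected on all arrays, 2 lay at the limit and 2 were not above it. Rab3a, the main RAB3 of neurons and endocrine granules, gave intensities of 1245.6, 1133.6 and 1580.7 at 4 h and of 870.6, 1215.5 and 846.2 at 16 h. Rab27a, which tethers granules at the plasma membrane, gave 1194.3, 1243.9 and 1205.3 at 4 h and 616.7, 1054.7 and 746.5 at 16 h. Before normalization, all 3 Rab27a intensities at 4 h were above those at 16 h, and those of Rab3a overlapped between the time points. At this stage 98.2% of detected probes on the array had a higher mean at 4 h. The share of probes without overlap was not counted before normalization. After normalization Rab27a overlapped as well. Rab3d, a RAB3 of exocrine and endocrine granules, gave 169.7, 172.7 and 181 at 4 h and 138.4, 194.8 and 137.8 at 16 h. Rab26, which acts in granule maturation, gave 206.3, 168.1 and 117.3 at 4 h and 148.9, 120.9 and 136.2 at 16 h. Both genes overlapped between the time points.

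Rab27b, the second RAB27 of secretory cells, had 3 probes, and the brightest was above the limit on all 3 arrays at 4 h (22.5, 19.6 and 30.9) and on 2 of 3 at 16 h (14, 14.4 and 9.2). The values of this probe too did not overlap before normalization and overlapped after it. Rab37, a granule RAB of mast cells and pancreatic beta cells, gave 15.5, 22.3 and 9.3 at 4 h and 10.9, 17.2 and 9.6 at 16 h, above the limit on 2 arrays at 4 h and on all 3 at 16 h. Neither gene had a probe above the limit on all arrays. Rab3b, the RAB3 of the anterior pituitary, ranged from -5 to 5.4 over the 6 arrays, and Rab3c ranged from -4.5 to 5.7, so the remaining 2 members of the RAB3 group were not well above background.

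**Figure D2:**
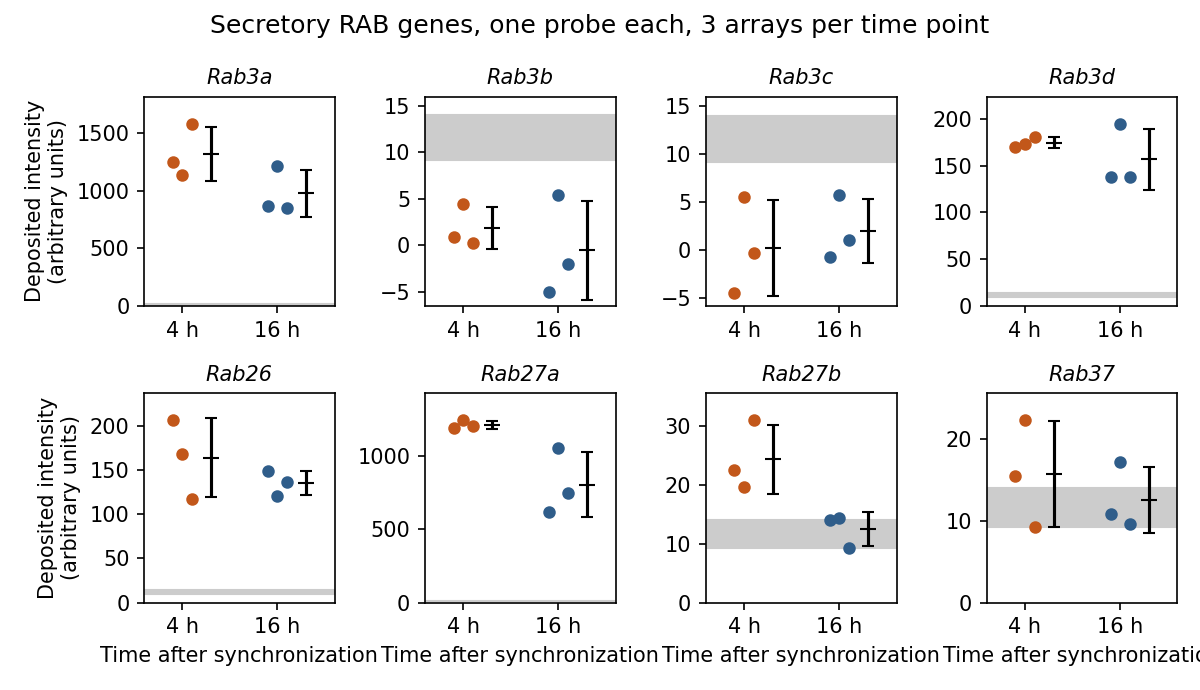
Deposited intensity (vertical axis, arbitrary units) of the 8 secretory RAB genes on each array at 4 h and 16 h, with the mean and SD of 3 arrays in black. The grey band spans the noise limits of the 6 arrays (9.2 to 14), which the points of Rab3b and Rab3c do not exceed. Each panel has its own scale.

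Before normalization, nearly every detected transcript was brighter at 4 h, and the RABs moved with the rest. The mean intensity of all probes was 354, 291 and 322 on the 4 h arrays and 246, 245 and 216 on the 16 h arrays. All 43 detected RAB genes had a higher mean at 4 h, with ratios of 1.08 (Rab14) to 1.85 (Rab33b), as did 98.2% of detected probes on the array. The median log2 ratio was 0.55 for the RABs and 0.55 for all detected probes. Within the classes it was 0.35 for the secretory, 0.55 for the endosomal and 0.72 for the Golgi and ER genes. The design gives no means of separating a shared rise in RNA at 4 h from brighter arrays, so these cannot be told apart. The changes that follow are therefore relative to the rest of the array, after quantile normalization, as 4 h minus 16 h on the log2 scale.

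**Figure D3:**
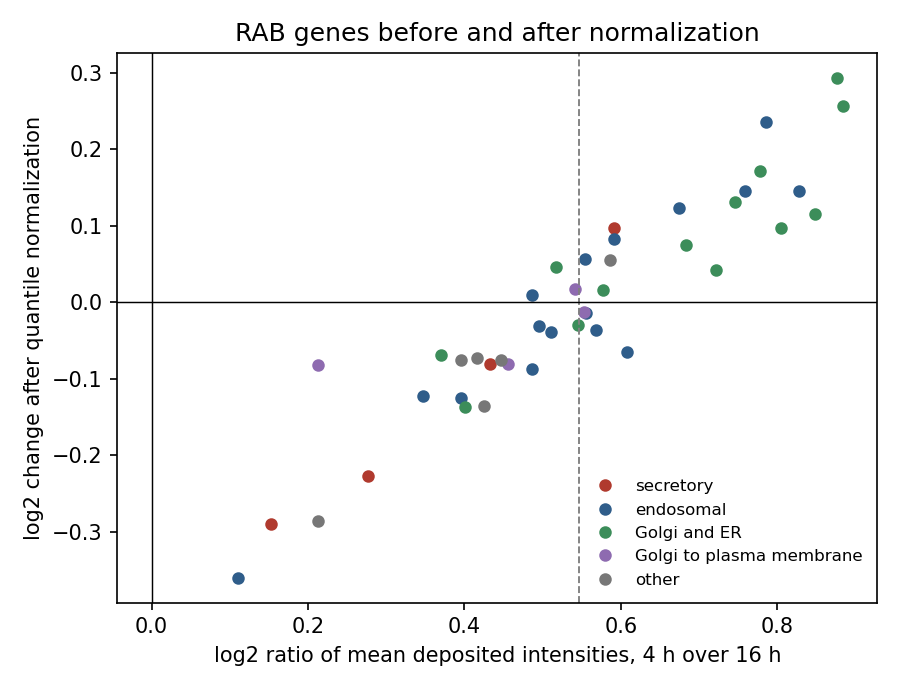
Each point is 1 of 43 detected RAB genes, with the log2 ratio of its mean deposited intensities (4 h over 16 h) on the horizontal axis and its log2 change after quantile normalization on the vertical axis. All points lie right of 0 on the horizontal axis, and the dashed line marks the median of all detected probes, 0.55.

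After normalization no RAB probe passed the test between 4 h and 16 h. None of the 102 probes passed an adjusted p of 0.05 in limma, where 0.00883% of all probes did (4 of 45281), and the lowest adjusted p among detected RAB genes was 0.50. At an unadjusted p under 0.05, 3 of the 65 detected RAB probes were higher at 4 h, a share of 4.62% against 5.74% of detected probes on the array, and 2 were lower, a share of 3.08% against 5.18%. The 3 arrays of each time point did not overlap for 5 RAB probes higher at 4 h (7.69%, background 6.12%) and for 1 lower at 4 h (1.54%, background 5.51%). No test of these shares was made. Of the 43 genes, 20 had a change above 0 and 23 a change below 0, with a median of -0.01 (all detected probes 0.0014) and a range from -0.36 to 0.29.

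Between the classes the medians went from -0.15 for the 4 detected secretory genes to 0.08 for the 13 Golgi and ER genes. The endosomal median was -0.02, with 7 genes above 0 and 9 below. Of the Golgi and ER genes 10 were above 0 and 3 below, of the secretory genes 1 was above and 3 below, of the Golgi to plasma membrane genes 1 was above and 3 below (median -0.05), and of the others 1 was above and 5 below (median -0.08). The SD of the class median between arrays of a time point was 0.14 for the secretory genes, about the size of their median, and 0.04 for the Golgi and ER genes. Leaving out 1 array at a time, the Golgi and ER median relative to detected probes ran from 0.03 (without 4 h replicate 3) to 0.12 (without 16 h replicate 2), and no test of the classes against each other was made.

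**Figure D4:**
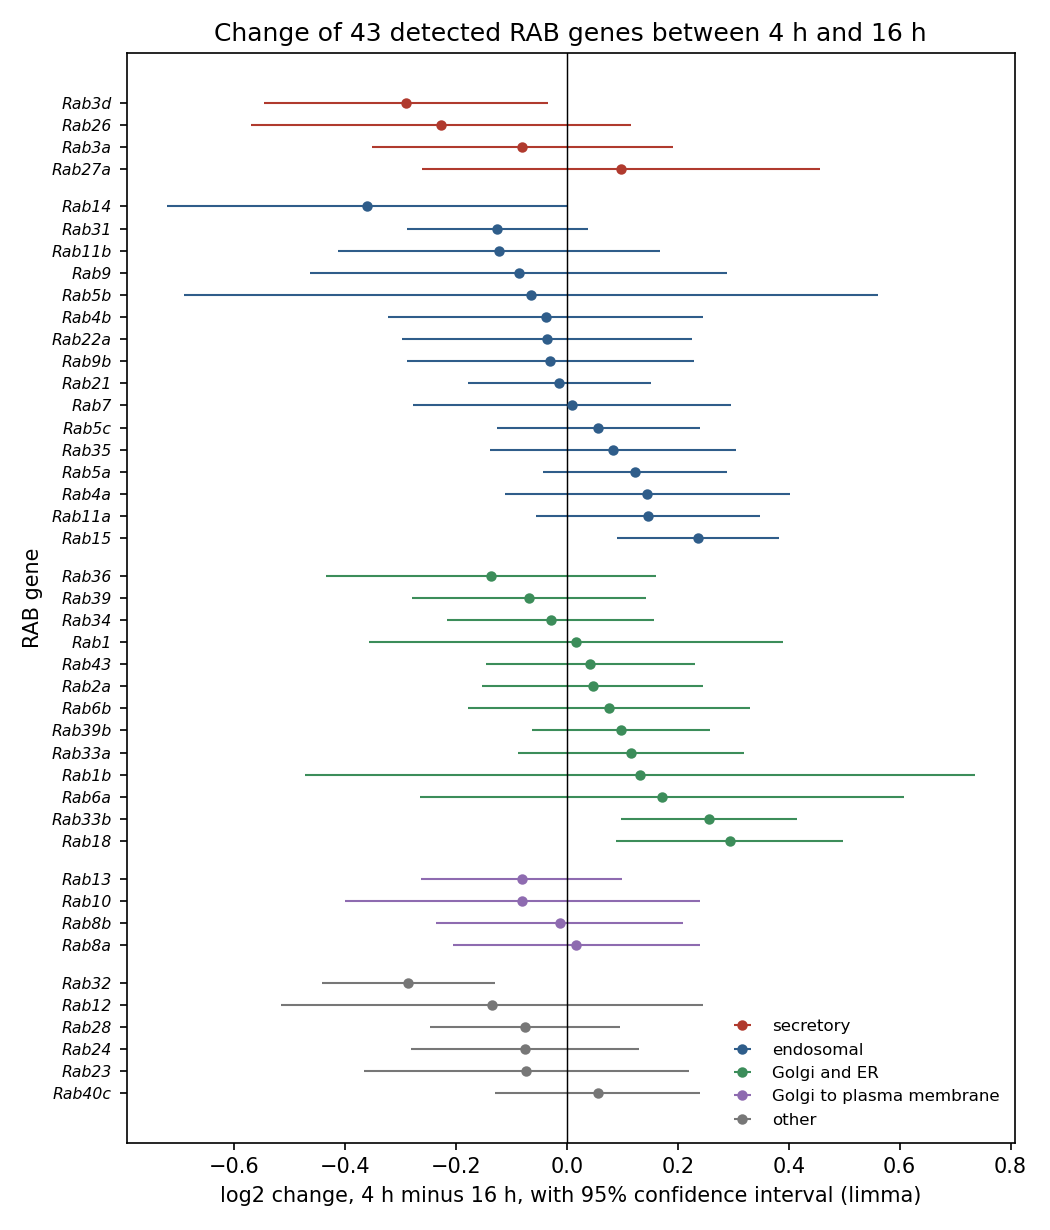
Log2 change at 4 h minus 16 h (horizontal axis) with its 95% confidence interval from limma for the 43 RAB genes detected on all arrays, ordered by class and change. The intervals of Rab15, Rab33b and Rab18 lie above 0 and those of Rab32 and Rab3d below 0 before adjustment over all probes, and none passed it.

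For the secretory genes the intervals were wide. Rab3d had a normalized log2 intensity of 7.55, 7.89 and 7.68 at 4 h and of 7.81, 8.16 and 8.02 at 16 h, a difference of -0.29 (SE 0.11, adjusted p = 0.88 in limma). The 4 h values of Rab3d were lower on average, with overlap. Rab26 differed by -0.23 (95% confidence interval -0.57 to 0.12), a value of -0.05 without 4 h replicate 3, and Rab3a by -0.08 (-0.35 to 0.19). Leaving out 1 array at a time, Rab3a ran from -0.18 (without 4 h replicate 3) to 0.02 (without 16 h replicate 2). The second detected probe of Rab3a differed by 0.02, so its 2 probes had opposite signs. Rab27a overlapped between the time points after normalization and differed by 0.10 (-0.26 to 0.46), a value of -0.09 without 16 h replicate 1. Rab27b and Rab37, at the noise limit, differed by 0.10 (-0.06 to 0.26) and -0.02 (-0.22 to 0.19).

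Among the endosomal genes, Rab15, a RAB of early and recycling endosomes in neurons, had the smallest p on the higher side. It had log2 intensities of 9.72, 9.81 and 9.77 at 4 h and of 9.55, 9.50 and 9.54 at 16 h, a difference of 0.24 (SE 0.06, adjusted p = 0.60). Rab15 values at 4 h were all above those at 16 h. Rab5a, the master RAB of early endosomes, whose promoter stretches are shown above, did not overlap either, with 9.55, 9.38 and 9.44 at 4 h and 9.38, 9.36 and 9.26 at 16 h, where the closest pair of values differed by less than the rounding shown. Its difference was 0.12 (95% confidence interval -0.04 to 0.29, adjusted p = 0.94), and its second probe, which overlapped between the time points, gave 0.16. Rab11a, of recycling endosomes, differed by 0.15 (-0.06 to 0.35) with overlap.

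On the lower side of the endosomal class stood Rab14, which acts between the Golgi and early endosomes, and Rab31, which acts from the trans-Golgi network to endosomes. Rab14 had log2 intensities of 10.39, 10.48 and 10.15 at 4 h and of 10.33, 11.00 and 10.77 at 16 h, a difference of -0.36 (95% confidence interval -0.72 to 0.0017, adjusted p = 0.92). Its 16 h arrays were far apart and overlapped those at 4 h. A further Rab14 probe filed under a clone name, outside the rule, was above the limit on all arrays and gave 0.13. Rab31 differed by -0.13 (-0.29 to 0.04). The late endosomal Rab7 differed by 0.0094 in its brightest probe, and its 3 detected probes spread from -0.22 to 0.0094. The remaining endosomal genes detected, Rab4a, Rab4b, Rab5b, Rab5c, Rab9, Rab9b, Rab11b, Rab21, Rab22a and Rab35, lay between -0.12 (Rab11b) and 0.15 (Rab4a), with adjusted p from 0.955 (Rab4a) to 0.995 (Rab21).

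In the Golgi and ER class, Rab33b, a Golgi RAB that also binds the autophagy factor ATG16L1, and Rab18, a RAB of the ER and lipid droplets, had the smallest p. Rab33b had log2 intensities of 8.49, 8.53 and 8.45 at 4 h and of 8.16, 8.22 and 8.32 at 16 h, a difference of 0.26 (SE 0.07, adjusted p = 0.60). Rab18 had 9.0, 9.04 and 9.22 at 4 h and 8.91, 8.81 and 8.66 at 16 h, a difference of 0.29 (SE 0.09, adjusted p = 0.72). Both genes had all 4 h values above all 16 h values, and the second Rab18 probe was above the limit on no array. The mean of both Rab18 probes differed by 0.10. Rab39b differed by 0.10 (95% confidence interval -0.06 to 0.26), a value of 0.05 without 4 h replicate 2, and Rab36 by -0.14 (-0.44 to 0.16), each from 1 probe, and Rab36 was 0.03 without 4 h replicate 3. The remaining detected genes with 1 probe or 1 detected probe, Rab2a, Rab6b, Rab33a, Rab39 and Rab43, lay between -0.07 (Rab39) and 0.12 (Rab33a).

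**Figure D5:**
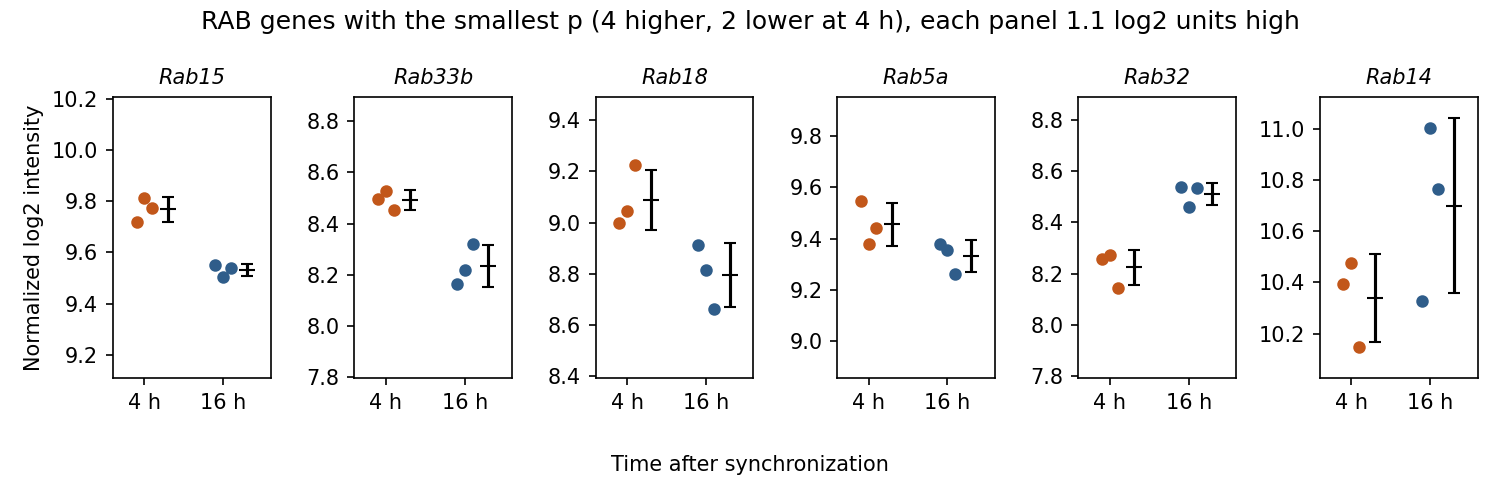
Normalized log2 intensity (vertical axis) on each array at 4 h and 16 h, with the mean and SD of 3 arrays in black, for the 4 higher and 2 lower genes with the smallest p outside the secretory class. Rab15, Rab33b, Rab18 and Rab5a do not overlap and lie higher at 4 h, Rab32 does not overlap and lies lower, and Rab14 overlaps. None passed the adjusted threshold.

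Single probes of the Golgi genes Rab6a and Rab1b carried a further difference between arrays. Probes for 18S ribosomal RNA were brighter on 4 h replicates 1 and 3 and on 16 h replicate 1 than on the other 3 arrays. Rab1b (probe ILMN_2693124) was higher on those arrays by 0.94 within 4 h and by 0.61 within 16 h, and Rab6a (probe ILMN_1242802) by 0.60 and 0.55. The other 3 Rab6a probes gave 0.17 and 0.27, -0.06 and -0.05, and 0.02 and -0.11, and the other Rab1b probe 0.23 and 0.38. On the opposite side, Rab27a was lower on those arrays (-0.28 within 4 h and -0.57 within 16 h), as was Rab14 (-0.21 and -0.56). Of the 65 detected RAB probes, the first Rab1b and Rab6a probes named were the 2 (3.08%) higher by over 0.5 within both time points, against 0.904% of detected probes on the array. Rab6a, which acts in retrograde transport to the ER, had 4 detected probes with changes between time points from -0.13 to 0.18, and Rab1b had 2 with -0.05 and 0.13. The part of the 18S signal in these values was not tested. A block on this separation of the arrays, added after the data were seen, gave 0 called RAB probes.

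In the route from the Golgi to the plasma membrane, all 4 genes were detected with 2 probes each. Rab8a, which carries vesicles to the cell surface, differed by 0.02 and Rab8b by -0.01. Rab10 differed by -0.08 (95% confidence interval -0.40 to 0.24) and Rab13, of tight junction traffic, by -0.08 (-0.26 to 0.10).

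Among the others, Rab32, which acts at mitochondria and lysosome-related organelles, had the smallest p of all RAB genes. It had log2 intensities of 8.26, 8.27 and 8.14 at 4 h and of 8.54, 8.46 and 8.53 at 16 h, a difference of -0.29 (SE 0.07, adjusted p = 0.50). Rab32 was the 1 detected RAB probe with all 4 h values below all 16 h values after normalization, while its deposited intensities were 320.2, 245.5 and 281.5 at 4 h and 262.7, 254.8 and 213.3 at 16 h, a ratio of 1.16. Rab28 differed by -0.08 (-0.25 to 0.10), with 3 probes all below 0. Rab24 had 3 detected probes, all below 0 (-0.23 to -0.08). Rab12, Rab23 and Rab40c gave -0.13, -0.07 and 0.06.

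Probes of the same gene did not always give the same sign. Of 16 genes with 2 or more probes above the limit on all arrays, 8 had changes of opposite sign. These were Rab1 (-0.02 and 0.02), Rab1b, Rab3a, Rab6a, Rab7, Rab8b (-0.01 and 0.08), Rab10 (-0.08 and 0.06) and Rab34 (-0.12 to 0.03). The spread between probes of a gene was at most 0.31, in Rab6a. This spread was of the size of the largest changes of single genes.

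The choice of scaling decided whether any RAB was called. Without normalization between arrays, 7 of 65 detected RAB probes were called higher at 4 h, against 15.1% of detected probes, and none was called lower. They were Rab15, Rab18, Rab33b, Rab8a, Rab40c, Rab24 and Rab39b, with changes from 0.37 to 0.78 beside a median of 0.39 for all detected probes. With each array scaled to a common median, 2 were called higher, Rab15 (0.64, adjusted p = 0.034) and Rab33b (0.63, adjusted p = 0.031), against 5.56% of detected probes and beside a shared shift of 0.30. The RAB shares were 10.8% and 3.08% in these settings.

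The proteins that regulate RABs were described by lists, and no gene of any list was called. Of the prenylation, escort and GDP dissociation inhibitor genes, 7 of 8 were detected, with 3 above 0 and 4 below. At an unadjusted p under 0.05, 1 of the 7 was higher and 1 lower, beside 5.74% and 5.18% of detected probes on the array, and the lowest adjusted p was 0.54. Of 40 exchange factors listed, 29 were detected, 13 above 0 and 16 below, with a median of -0.02, and an unadjusted p under 0.05 was met by 3 on the higher side and 0 on the lower. Those with the smallest p on each side were Trappc5 (0.20, adjusted p = 0.74), a subunit of the TRAPP complex, and Hps1 (-0.13, adjusted p = 0.92), a subunit of the exchange factor for Rab32 and Rab38. Of 35 GTPase-activating proteins, 27 were detected, 9 above 0 and 18 below, with a median of -0.05, and that p was met by 0 on the higher side and 3 on the lower. Tbc1d17, of the TBC family, differed by -0.63 (SE 0.11, adjusted p = 0.22) and Tbc1d14 by 0.22 (SE 0.12, adjusted p = 0.92).

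Of 14 effectors of RAB3 and RAB27 with a probe, 5 were above the limit on all arrays, a share near the 36.0% of all genes. They were Rims2, Rims3, Rph3al, Myrip and Myo5a. Listing does not mean that a member binds a RAB directly, and for Rims3 this was not checked. Sytl4, the granule effector granuphilin, was above it on no array, nor were Sytl3, Sytl5, Rims1, Exph5 and Unc13d. Rims3 differed by -0.16 (SE 0.07) and Rims2 by 0.11 (SE 0.08), with adjusted p of 0.92 and 0.95. Of 31 effectors of endosomal and Golgi RABs, 26 were detected, 14 above 0 and 12 below, with a median of 0.02. Gorasp2, a Golgi stacking protein, differed by 0.27 (SE 0.08, adjusted p = 0.73) and Rab11fip3, which binds RAB11, by -0.13 (SE 0.09, adjusted p = 0.95).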

How the data were processed

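Total RNA of synchronized mGLUTag cells was hybridized to Illumina mouse WG-6 arrays, 3 per time point. The authors deposited bead intensity values per probe, background subtracted and not normalized between arrays, without detection p-values or control probes; the scanner software is not given in the sources used here. Intensities were corrected by normexp (offset 50), quantile normalized, log2 transformed and fitted in limma 3.58.1 (R 4.3.3) to all 45281 probes as 4 h minus 16 h, with Benjamini-Hochberg adjustment at 0.05. The fit was run on simulated data with 200 probes changed by 1 log2 unit. No RAB gene changed by as much, so that run does not cover changes of the size seen here. The number of arrays (6) limits the precision. Where several probes stood for a gene, the one with the highest mean log2 intensity was used. Older symbols were updated through RefSeq (27760 probes matched by symbol, 7994 by synonym, 9527 not).

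Named were all 8 secretory genes and the 6 others with the smallest p in each direction among detected genes. Genes whose detected probes had opposite signs were also named. So was the member with the smallest p on each side of every partner list but 1. The remaining members were given by detection class or range. For the prenylation, escort and GDP dissociation inhibitor list no single gene is reported here. The members, classes, lists and the noise limit were chosen with earlier results of these data known. Same-numbered samples did not deviate together (correlations 0.25, 0.17 and -0.49), so no pairing was used. Alternatives covered background, offset, normalization, filter, variance model, array weights, block, probe choice and omission of each array.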

Additional observations from a re-analysis of the deposited data

How the results depend on the processing

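No RAB probe was called under any setting other than median scaling and no normalization between arrays. With median scaling 2 RAB probes and 2 of 94 detected partner genes (2.13%) were called, beside 5.56% of detected probes, and without normalization 7 RAB probes and 14 partner genes (14.9%), beside 15.1%. Under both, the median change relative to detected probes was 0.033 for the RABs and 0.032 for the endosomal genes, and that of the secretory genes was -0.083, against -0.155 after quantile normalization. With all probes of a gene averaged the secretory median was -0.079. Without background correction the Golgi and ER median was 0.140, and Rab27b was 0.46, Rab37 -0.19, Rab13 -0.26, Rab39b 0.23, Rab11a 0.29 and Rab36 -0.21. Leaving out 1 array at a time moved the median of the RABs from -0.019 to 0.017, of the endosomal genes from -0.012 to 0.022 and of the Golgi and ER genes from 0.029 to 0.119.

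Sign changes were counted for 18 of the named genes, and 28 values changed sign under an alternative. With median scaling these were Rab26 (0.11), Rab37 (0.03), Rab3a (0.33), Rab3d (0.052) and Rab32 (0.10). The rest were Rab14 (0.048), Rab31 (0.29), Rab36 (0.20), Rab13 (0.025) and Rab28 (0.301). This setting keeps a shared shift, a median of 0.303 for all detected probes, and of these genes Rab3a alone lay above it. Without normalization they were Rab26 (0.20), Rab37 (0.12), Rab3a (0.42), Rab3d (0.14) and Rab32 (0.18). The rest were Rab14 (0.14), Rab31 (0.38), Rab36 (0.28), Rab13 (0.11) and Rab28 (0.390). The shared shift was then 0.392, and again Rab3a alone lay above it. All 23 detected RAB genes below 0 after quantile normalization were above 0 in both settings. Rab8b, Rab10 and Rab34, named but not counted, were among them. With the block on the 18S separation Rab37 was 0.038, Rab27a 0.24, Rab3a -0.044, Rab28 -0.035 and Rab14 -0.23. Leaving out 1 array at a time gave ranges from -0.106 to 0.0375 for Rab37, from -0.182 to 0.0190 for Rab3a, from -0.245 to 0.0297 for Rab36 and from -0.0918 to 0.240 for Rab27a, and, with no change of sign, from -0.34 to -0.05 for Rab26, from -0.54 to -0.21 for Rab14, from 0.08 to 0.23 for Rab11a, from 0.05 to 0.13 for Rab39b, from 0.06 to 0.14 for Rab27b, from 0.08 to 0.16 for Rab5a, from -0.17 to -0.04 for Rab13 and from -0.13 to -0.02 for Rab28. With all probes of a gene averaged, those under the noise limit and those filed under clone names included, Rab14 was -0.048, Rab31 -0.027, Rab18 0.10 and Rab26 -0.12. The cause was not tested.

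With the replicate block, 0 RAB probes, 0 partner genes and 0 of all probes were called. The deviations of same-numbered arrays correlated at 0.25, 0.17 and -0.49. Quantile normalization of log2 values, added after the data were seen, gave 0 called RAB probes.
The number of RAB genes above the noise limit on all arrays was 41 with the limit at the largest below-zero value and 44 with the 95th percentile. Arrays deposited with no detection p-values limit what can be said of dim probes, and 2 genes at the limit, Rab27b and Rab37, have values close to background.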
